A study of Mus musculus with 4 samples.

Results

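The genes described here are the guidance ligands and receptors that growing axons and migrating cells use to read direction: the semaphorins of classes 3 to 7 with their plexin and neuropilin receptors, the ephrins with the Eph receptor tyrosine kinases, the Slits with the Robo receptors, and the netrins with Dcc and the Unc5 receptors. Members were taken by gene symbol alone, with no use of measured values, which gave 70 of the 35869 rows of the expression table: 35 ligands, 34 receptors and Plxna4os1, an antisense RNA whose symbol begins like that of a plexin. They were read in oligodendrocytes of the mouse cerebral cortex at postnatal day 5, purified by flow cytometry for the surface lipids O4 and GalC. The groups are 2 wild-type libraries (WT 1 and WT 2) and 2 libraries labelled Zfp488 KO (KO 1 and KO 2), from animals carrying the Zfp488 knock-in allele on both chromosomes. The strain, the sex, the structure of the knock-in allele, any treatment and the number of animals behind each library are not stated by the labels, so the spread between libraries of a genotype may be technical. Levels are FPKM, which divides fragments by transcript length and library size and so allows genes to be set side by side.

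Semaphorins signal through plexins, and most secreted class 3 semaphorins also need a neuropilin as co-receptor. Ephrins are tethered to the cell surface, the A class by a lipid anchor and the B class by a transmembrane segment, so that Eph signalling needs contact between cells and can run in both directions. Netrins attract through Dcc and repel through Unc5 receptors, and Slits repel through Robos. In the oligodendrocyte lineage these systems are known for steering precursor migration and for shaping the processes of maturing cells.

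The sorted cells carried oligodendrocyte lineage transcripts, and the content of other cell types differed by library number more than by genotype. Of 20 precursor markers, 17 reached 1 FPKM in a library, with sums of 2764 and 2674 FPKM in WT 1 and WT 2 and 3313 and 2783 in KO 1 and KO 2. The sums of 20 myelin markers were 1115 and 683.5 FPKM in the wild type and 748.6 and 375.9 in KO, so they were lower in the KO library of each number and lower in both libraries numbered 2. Sums of 15 microglial markers were 72 and 63.2 FPKM in WT 1 and KO 1 against 204.9 and 222.9 in WT 2 and KO 2. Sums of 15 endothelial markers were 3.92 and 1.5 FPKM against 38.3 and 34.4, of which Cldn5 alone supplied 26.8 and 26.3. Flt1 and Tie1 were at 1.20 and 1.12 in WT 2 but at 0 in KO 2, Kdr was at 1.95 in KO 2 but at 0 in WT 2, and Pecam1, Emcn and Erg stayed under 0.05 in every library. The 15 astrocyte and radial glia markers followed the same order (1106 and 1328 FPKM against 2148 and 2319), with Gjb6 under 0.05 throughout. Sums of 15 pericyte, smooth muscle and fibroblast markers were 25.7 and 54.9 FPKM against 86.5 and 84.5, with Abcc9 and Myh11 under 0.05, and 2 of these markers, Cspg4 and Dcn, are also on the precursor list. Neuronal markers were low (31.1 and 54.2 FPKM in the wild type, 42.2 and 67 in KO over 20 genes), with Slc17a6, Slc17a7 and Neurod2 among those under 0.05 in every library. Of the 8 neuronal markers tested, 3 had both KO libraries above both WT libraries (37.5%, against 16.6% of all tested rows). They were Stmn2 (1.35 and 0.503 FPKM in the wild type, 3.67 and 6.57 in KO), Snap25 and Elavl4. The KO libraries lay below for 0 (against 18.3% of all tested rows), and the groups overlapped for 5. Among the untested neuronal markers, Neurod6 was at 3.06 FPKM in KO 1 alone. Syt1 was lower in both KO libraries (0.316 and 0.354 FPKM in the wild type, 0.225 and 0.251 in KO). The part of neuronal transcript in the guidance genes that were higher in KO was not tested. The Zfp488 transcript had 6.61 and 5.29 FPKM in the wild type and 4.82 and 4.11 in KO, and without the structure of the allele these values check the labels only weakly. In bulk RNA, fewer cells of a type and less RNA per cell cannot be told apart.

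No guidance gene passed the test between genotypes. Of the 70 members, 29 reached 1 FPKM in at least 2 libraries and entered the test: 26 through libraries of both genotypes, Dcc and Plxna3 through KO libraries only, and Unc5c through WT libraries only. With limma across all 10754 rows tested, 0 members had an adjusted p under 0.05 (smallest 0.87), beside 0 of all rows (percent called 0). At an unadjusted p under 0.05 there was 1 member higher in KO, Ntn4, and 0 lower, beside 302 rows higher (2.81%) and 306 lower (2.85%) over the table. After rescaling to TPM those rows numbered 383 higher and 181 lower. Both KO libraries lay above both WT libraries for 8 tested members (27.6%, against 16.6% of all tested rows) and below for 3 (10.3%, against 18.3%), and the groups overlapped for 18. Over the 69 members above 0 in any library, the counts were 14 above (20.3%, against 13.8% of such rows) and 7 below (10.1%, against 13.3%). The median log2 difference of KO minus WT was 0.16 over the tested members and 0.0001 over all tested rows, and 0.0073 over the 69 members fitted with no filter. In that fit 1 member was higher (Sema3e) and 3 were lower (Unc5b, Slit2 and Efna2) at a limma unadjusted p under 0.05. Over the 22897 rows fitted, 608 were higher and 515 lower at the same limit. With a library left out the counts were 11 to 14 above (13 without WT replicate 1, 14 without KO replicate 2) and 5 to 10 below (10 without KO replicate 1), since fewer libraries overlap less often by construction. The longest transcripts of the tested members had a median of 4748 bp, against 2931 bp over tested rows, and with the trends by transcript length and level removed the counts were 8 above and 4 below. The shares over all rows were not computed for that setting or with a library left out, so those counts have no background beside them.

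**Figure D1:**
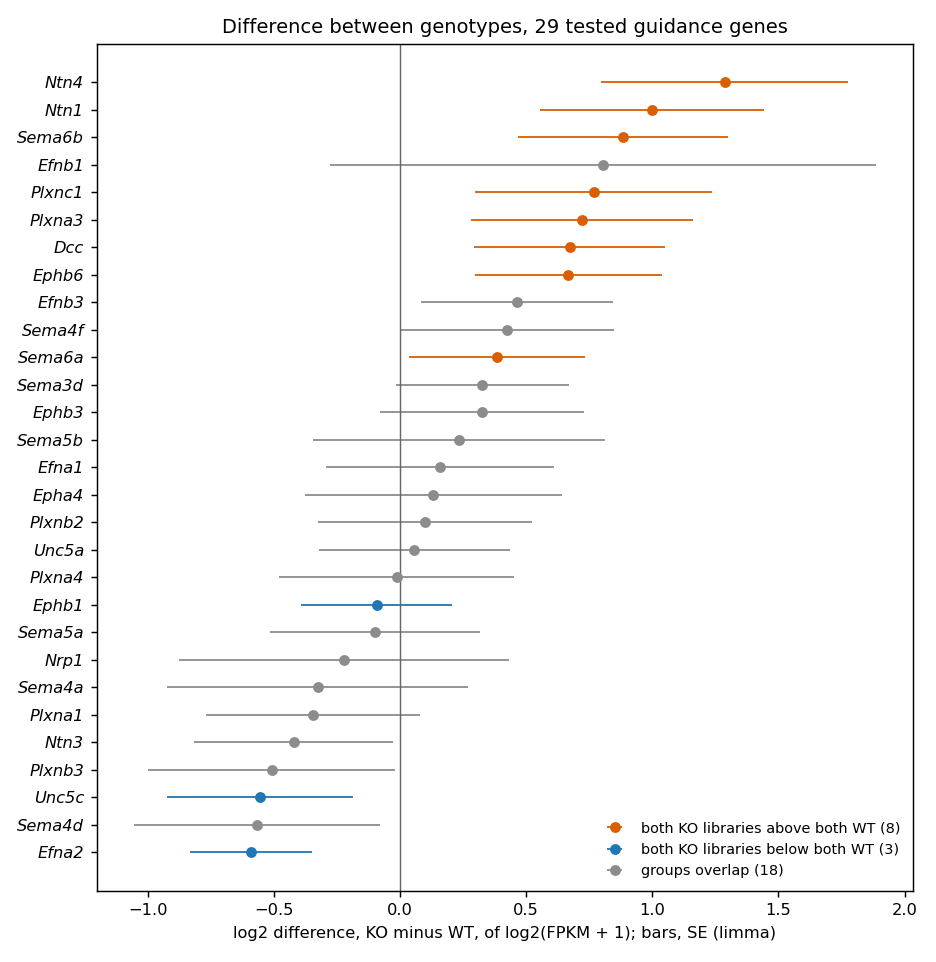
Log2 difference of KO minus WT on the log2(FPKM + 1) scale for the 29 tested guidance genes, with bars for the SE from limma and colours for how the 2 libraries of each genotype lie. Ntn4 stands at the top at 1.29 and Efna2 at the bottom at -0.59, and no gene passed the test after adjustment.

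The promoters of 4 genes are shown as examples. Efna2 was the most abundant ligand, and Sema3d the most abundant semaphorin. Ntn4 was the tested ligand with the largest genotype difference on the log2(FPKM + 1) scale. Sema3e, a class 3 gene 1.44 Mb from Sema3d on the same chromosome, did not enter the test and was singled out after its values were seen. Each line gives the 250 bases before the most upstream start in the RefSeq promoter table (GRCm38.p6, the build the submitters name as mm10), 5′ to 3′, with every CG dinucleotide in capitals. Efna2 lies at chr10:80179232-80179481, Ntn4 at chr10:93640799-93641048, Sema3d at chr5:12382916-12383165 and Sema3e at chr5:14025026-14025275, all on the plus strand. The Sema3d window reaches 5 bases into the gene as the RefSeq gene table bounds it.
Efna2: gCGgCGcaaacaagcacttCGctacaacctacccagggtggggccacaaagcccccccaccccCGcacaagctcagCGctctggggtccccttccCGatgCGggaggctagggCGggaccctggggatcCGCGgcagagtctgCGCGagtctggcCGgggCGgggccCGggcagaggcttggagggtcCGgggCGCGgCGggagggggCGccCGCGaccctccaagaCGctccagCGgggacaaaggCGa
Ntn4: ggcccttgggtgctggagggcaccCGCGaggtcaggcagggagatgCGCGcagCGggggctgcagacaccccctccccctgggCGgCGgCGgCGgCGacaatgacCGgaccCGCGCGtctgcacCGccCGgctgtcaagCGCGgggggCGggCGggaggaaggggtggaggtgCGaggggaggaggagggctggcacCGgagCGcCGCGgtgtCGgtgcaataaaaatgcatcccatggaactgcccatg
Sema3d: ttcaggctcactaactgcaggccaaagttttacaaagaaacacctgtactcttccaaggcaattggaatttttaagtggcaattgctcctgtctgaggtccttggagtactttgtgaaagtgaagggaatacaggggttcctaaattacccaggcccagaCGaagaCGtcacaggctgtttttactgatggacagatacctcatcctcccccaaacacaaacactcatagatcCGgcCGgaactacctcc
Sema3e: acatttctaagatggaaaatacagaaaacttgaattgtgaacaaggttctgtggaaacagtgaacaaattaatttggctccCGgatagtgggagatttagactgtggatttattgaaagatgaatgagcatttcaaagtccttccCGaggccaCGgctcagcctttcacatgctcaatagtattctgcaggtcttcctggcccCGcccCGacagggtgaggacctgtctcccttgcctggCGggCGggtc
Efna2 and Ntn4 held 25 and 26 CG dinucleotides at a GC content of 73.6% and 73.2%, whereas Sema3d and Sema3e held 4 and 7 at 46.8% and 48%. Sequences were found for 59 members, of which 33 (55.9%) had a GC content of at least 55% and an observed over expected CG ratio of at least 0.6, against 57.4% of promoters of tested rows and 27.8% of all 27025 promoters. The 23 promoters of tested members met both limits in 10 cases (43.5%), and the 36 of members that did not enter the test in 23 (63.9%). The letters ACAAAG, the core recognised by SOX factors, were present on either strand in the Efna2 and Sema3d windows, in 6 of 59 member promoters (10.2%), 4 of the 23 of tested members (17.4%), 11.8% of those of tested rows and 16.5% of all promoters. The E-box letters CAGCTG were in 10 member promoters (16.95%), 11.6% of those of tested rows and 12.7% of all, and CATATG in 0, 1.31% and 3.48%. The TATAAA box was in 2 member promoters (3.39%), 6.04% of those of tested rows and 13% of all. These are matches of letters, and the data hold no measurement of binding.

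Ephrins contributed the most transcript of any family, 35.1% of the summed FPKM of all members, and most of it came from Efna2. Efna2, a lipid-anchored ephrin (chromosome 10, 80179482 to 80190010), was at 36.2 and 36.9 FPKM in the wild type and at 20.8 and 27.6 FPKM in KO. Each KO library was lower than each WT library, and the WT libraries stood within 1 FPKM of each other, and the mean KO level was 0.661 of the WT level. The log2 difference was -0.59 (SE 0.24; limma unadjusted p = 0.06, adjusted p = 0.885), and it was -0.39 without KO replicate 1. Efnb3, a transmembrane ephrin, was at 4.61 and 6.60 FPKM in the wild type and 10.2 and 6.26 in KO, and Efna1 at 4.13 and 6.29 in WT and 3.96 and 8.41 in KO. The genotypes overlapped for both. Efna1 was higher in WT 2 and KO 2, the libraries with more microglial, astrocyte and endothelial marker transcript. Whether that transcript has a part in the Efna1 values was not tested.

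Efnb1 was the least even of the expressed ephrins. It was listed at 0 in WT 1, at 5.20 FPKM in WT 2, at 7.41 in KO 1 and at 1.25 in KO 2. Its log2 difference of 0.80 had an SE of 1.08, and it turned to -0.51 without WT replicate 1 and to -0.15 without KO replicate 1. Efnb2 was low and even (0.277, 0.243, 0.236 and 0.241 FPKM in WT 1, WT 2, KO 1 and KO 2), and Efna5 did not exceed 0.037. Efna1, Efna3 and Efna4 lie in a row on chromosome 3, with gaps of 32.9 and 10.5 kb, yet their mean levels over the 4 libraries were 5.70, 0.871 and 0.477 FPKM.

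Among the Eph receptors, the B class carried most of the transcript. The 5 EphB genes summed to 17.5 and 14.1 FPKM in the wild type and to 22.1 and 17.7 in KO, while the 9 EphA genes summed to between 2.14 FPKM (WT 1) and 5.25 (KO 1). Ephb1 was the most even of the tested members, at 6.44 and 6.25 FPKM in the wild type and 5.88 and 5.90 in KO. Its KO libraries both lay lower, but the log2 difference was only -0.09 (SE 0.30). Ephb3 was at 7.17 and 3.65 FPKM in the wild type and 7.47 and 6.04 in KO, and these overlapped. Ephb6, a receptor whose kinase domain lacks activity, was at 3.59 and 4.19 FPKM in the wild type and at 8.61 and 5.25 in KO. Both KO libraries were above both WT libraries (log2 difference 0.67, SE 0.37, limma adjusted p = 0.914), and KO 1 supplied most of the distance, since without KO replicate 1 the difference was 0.36.

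Of the EphA receptors only Epha4, which binds ephrins of both classes, entered the test. It was at 1.31 and 1.29 FPKM in the wild type and at 2.77 and 0.689 in KO, so that the KO libraries stood on either side of the WT ones. Epha5 was just under the limit in most libraries (0.739, 0.932, 1.10 and 0.617 FPKM). Epha2, Epha6, Epha8 and Ephb4 were under 0.05 FPKM in every library. The lipid-anchored ligands were thus read at a higher summed level (25.6 to 43.8 FPKM) than their EphA receptors in each of the 4 libraries, whereas for the B class the receptors were the higher in WT 1, WT 2, KO 1 and KO 2 alike (14.1 to 22.1 against 4.89 to 17.8).

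**Figure D2:**
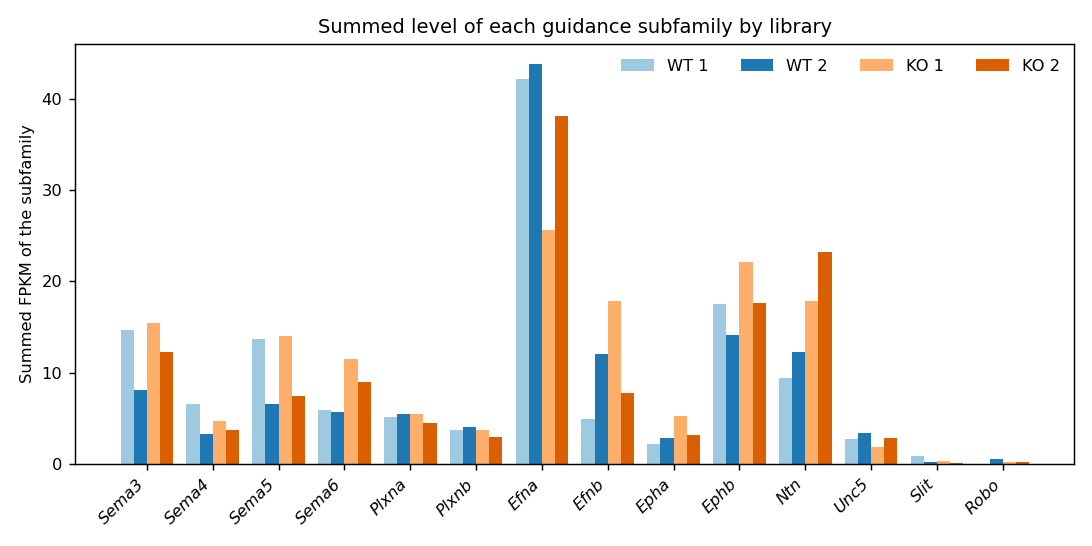
Summed FPKM of the genes of each subfamily, with a bar for each library, from an axis that starts at 0. The A-class ephrins lead in every library (25.6 to 43.8 FPKM), netrins are higher in both KO libraries than in either WT library, and Slit and Robo bars are near 0.

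Netrins had a higher summed level in both KO libraries than in either WT library. The 4 netrin genes summed to 9.37 and 12.2 FPKM in the wild type and to 17.9 and 23.3 in KO. Ntn4, which binds laminin in basement membranes (chromosome 10, 93641049 to 93745972), was at 2.55 and 6.49 FPKM in the wild type and at 9.11 and 14.7 in KO. The groups did not overlap, the ratio of means was 2.63, and the log2 difference was 1.29 (SE 0.49; limma unadjusted p = 0.047, adjusted p = 0.87). Within each genotype the library numbered 2 was the higher, as were the marker sums of endothelial, mural and microglial cells. Among the libraries low in those markers Ntn4 was at 2.55 (WT 1) and 9.11 FPKM (KO 1), and among those high in them at 6.49 (WT 2) and 14.7 (KO 2). The log2 difference ranged from 0.75 without WT replicate 1 to 1.83 without WT replicate 2.

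Ntn1, the diffusible netrin that guides axons at the midline (chromosome 11, 68209364 to 68386826), was at 4.18 and 1.66 FPKM in the wild type and at 6 and 6.85 in KO. Both KO libraries were higher and close together (log2 difference 0.997, SE 0.44, limma adjusted p = 0.902), whereas the WT libraries differed by 0.96 on the same scale. Without WT replicate 2 the difference was 0.51. Ntn3 went the other way without separating the groups, at 2.63 and 4.08 FPKM in the wild type and 2.74 and 1.75 in KO. Its locus overlaps that of Tbc1d24 over 1732 bases, and since the strand setting is unknown, reads in that stretch cannot be assigned with certainty. The same holds for Plxna1 with Gm40415 (1237 bases) and for Unc5a with Hk3 (34 bases). Ntn5 was at most 0.003 FPKM.

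The netrin receptors were lower than their ligands in summed level (Unc5 genes 1.90 to 3.42 FPKM) and differed from each other in direction. Dcc, the attractive receptor, was at 0.656 and 0.777 FPKM in the wild type and at 2.15 and 1.37 in KO (log2 difference 0.67, SE 0.38, limma adjusted p = 0.914). Unc5c, a repulsive receptor, was at 1.30 and 1.505 FPKM in the wild type and at 0.494 and 0.783 in KO (log2 difference -0.56, SE 0.37, limma adjusted p = 0.928). The genotypes thus did not overlap for either, in opposite directions, but each entered the test only through the genotype in which it was higher. Unc5a overlapped between the groups (1.33 and 1.79 FPKM in the wild type, 1.31 and 2.05 in KO). Unc5b was at 0.112 and 0.128 FPKM in the wild type and at 0.006 and 0 in KO, and Unc5d did not exceed 0.085.

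Semaphorins, the largest family with 20 genes, supplied 26.2% of the summed level, and 8 of them entered the test. Sema3d, a secreted class 3 semaphorin, was the most abundant at 12.7 and 7.89 FPKM in the wild type and 14.4 and 11.4 in KO, with overlapping groups. The remaining 6 class 3 genes were not tested, among them Sema3a, which repels many axons and was at most 0.002 FPKM. Sema5b followed at 10.5 and 3.39 FPKM in the wild type and 9.78 and 5.45 in KO. Here the spread within each genotype (1.38 and 0.74 on the log2 scale) was wider than the difference between genotypes (0.23).

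Class 6 was the semaphorin class in which both tested genes separated the genotypes. Sema6b, a transmembrane ligand of A-type plexins, was at 3.30 and 1.88 FPKM in the wild type and at 6.97 and 4.29 in KO. Both KO libraries were higher (ratio of means 2.18, log2 difference 0.89, SE 0.42, limma adjusted p = 0.914). Sema6a was at 2.31 and 3.21 FPKM in the wild type and at 3.64 and 4.11 in KO, also without overlap but by less (log2 difference 0.38, SE 0.35, limma adjusted p = 0.949; 0.21 without WT replicate 1). The 4 class 6 genes summed to 5.95 and 5.70 FPKM in the wild type and to 11.5 and 9.03 in KO. Left-out libraries moved the Sema6b difference between 0.59 (without KO replicate 1) and 1.18 (without KO replicate 2).

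Class 4 semaphorins and Sema5a did not separate the genotypes. Sema4d, a ligand of plexin B1, was at 2.05 and 1.07 FPKM in the wild type and at 1.31 and 0.244 in KO. Sema4a was at 2.68 and 0.777 FPKM in the wild type and at 1.99 and 0.394 in KO. Both were therefore lower in the libraries numbered 2 and in the KO library of each number, as were the sums of myelin markers. Mir7011, a microRNA locus inside Sema4a noticed after its values were seen, had the same order (29.4 and 7.49 FPKM, then 19.5 and 3.84). Sema4f (1.55 and 0.746 FPKM in the wild type, 1.39 and 2.37 in KO) had no such order, and Sema5a stood at 3.23 and 3.21 in WT and at 4.19 and 1.99 in KO.

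Plexins were low throughout, and their summed level hardly varied between libraries. The 9 plexin genes summed to 9.12 and 10.7 FPKM in the wild type and to 10.6 and 10.1 in KO. Plxna1, the most abundant, was at 2 and 4.17 FPKM in the wild type and at 2.34 and 1.88 in KO. Plxnb3, a plexin known from oligodendrocytes, was at 2.45 and 1.69 FPKM in the wild type and at 2.05 and 0.502 in KO, with overlapping groups. Plxnb2 was at 0.742 and 1.92 FPKM in the wild type and at 1.36 and 1.48 in KO. Plxna4 was at 2.17 and 0.631 FPKM in the wild type and at 1.27 and 1.24 in KO, and its antisense partner Plxna4os1, which lies inside the gene, was at most 0.026.

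Both plexins that separated the genotypes were near the level required for the test. Plxnc1, the receptor of Sema7a, was at 0.32 and 1.10 FPKM in the wild type and at 1.22 and 2.62 in KO (log2 difference 0.77, SE 0.47, limma adjusted p = 0.918). WT 2 and KO 1 differed by little (1.10 against 1.22), so the absence of overlap rests on a narrow gap. The difference was 0.43 without WT replicate 1 and 0.42 without KO replicate 2. Plxna3, a partner of neuropilins for class 3 semaphorins, was at 0.841 and 0.088 FPKM in the wild type and at 1.56 and 1.12 in KO (log2 difference 0.72, SE 0.44, limma adjusted p = 0.918). It entered the test only through its KO libraries, and its difference was 0.34 without WT replicate 2 and 1.10 without WT replicate 1. Sema7a, the ligand of Plxnc1, was highest in WT 1 at 0.354 FPKM and at most 0.042 elsewhere.

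Neuropilins varied with library number. Nrp1, a co-receptor for class 3 semaphorins that endothelial cells also use for VEGF, was at 0.254 and 2.91 FPKM in the wild type and at 0.567 and 1.30 in KO. It was thus higher in WT 2 and KO 2, where the microglial, astrocyte and endothelial marker sums were all higher. The endothelial marker Cldn5 was at 26.8 and 26.3 FPKM there, against 0 and 0.035 in WT 1 and KO 1. Esam (2.8 and 5.58 FPKM in WT 1 and WT 2, 0.027 and 2.15 in KO 1 and KO 2), Eng and Ly6c1 shared this order. Flt1 and Tie1 did not, at 1.20 and 1.12 in WT 2 but at 0 in KO 2. The part of transcript from any of these cell types in the Nrp1 values was not tested. The log2 difference between genotypes was -0.22 (SE 0.65, limma adjusted p = 0.994) and became 0.60 without WT replicate 2 and 0.05 without KO replicate 1. Nrp2 did not exceed 0.247 FPKM.

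Slits and Robos were the family with no tested gene. The 7 genes summed to 0.922 and 0.738 FPKM in the wild type and to 0.511 and 0.334 in KO. Slit2 was at 0.168 and 0.222 FPKM in the wild type and at 0.091 and 0.061 in KO, the only member of the family whose genotypes did not overlap. Slit1 was read mainly in the libraries numbered 1 (0.378 in WT 1 and 0.221 in KO 1, against 0.009 and 0.008 FPKM). Robo1 was at 0.001 and 0.469 FPKM in the wild type and at 0.186 and 0.232 in KO. Robo4, an endothelial Robo, was the only member listed at 0 in all libraries, and Robo3, its neighbour 2 kb away, was at most 0.002.

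**Figure D3:**
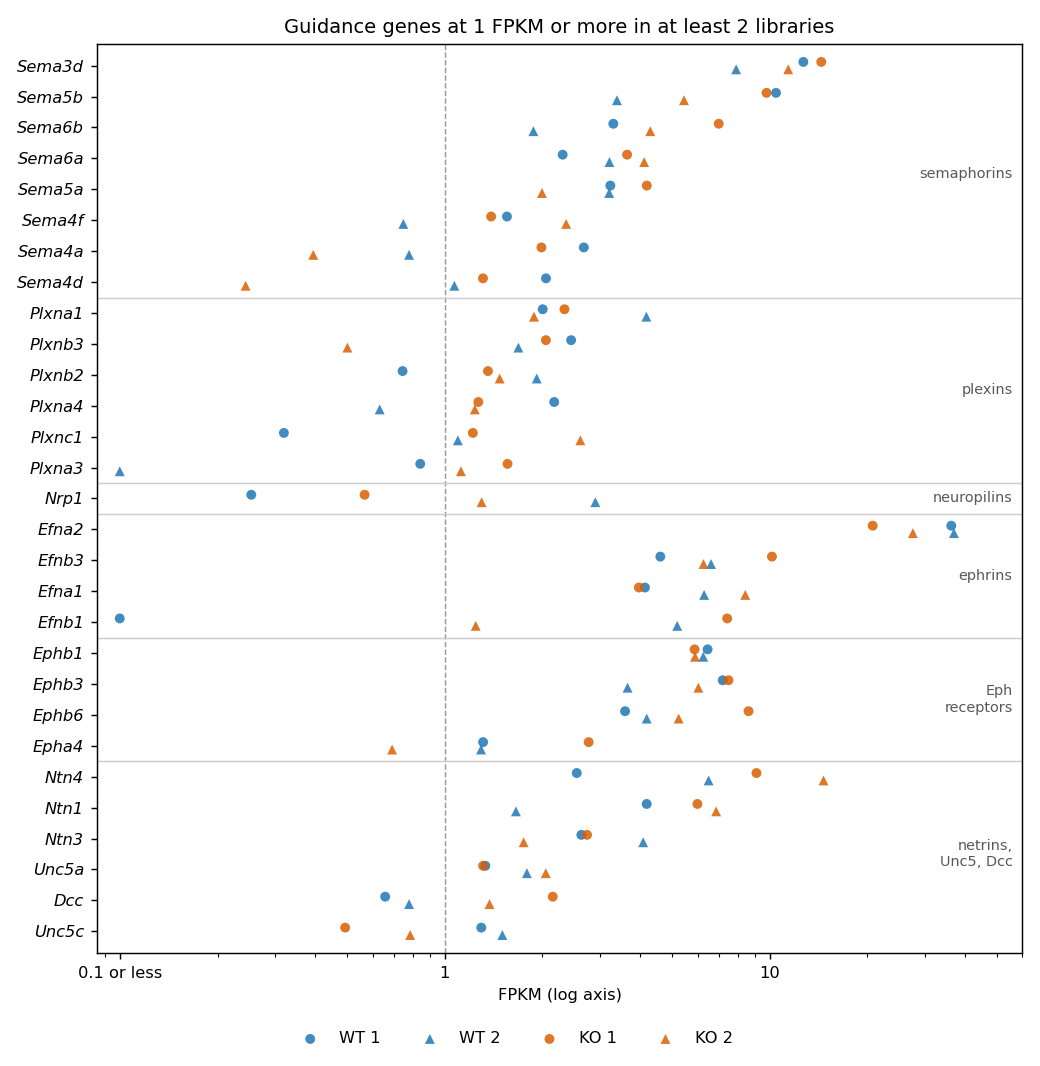
FPKM on a log axis for the 29 guidance genes that reached 1 FPKM (dashed line) in at least 2 libraries, grouped by family, with blue points for WT, orange for KO, circles for libraries numbered 1 and triangles for those numbered 2. Values of 0.1 or less, those of Efnb1 in WT 1 (0) and Plxna3 in WT 2 (0.088), are drawn at 0.1.

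The spread within a genotype exceeded the genotype difference for most members, as it did for most genes. On the log2(FPKM + 1) scale the median absolute difference over the 29 tested members was 0.56 between WT 1 and WT 2, 0.49 between KO 1 and KO 2, and 0.42 between the genotype means. Over all tested rows the same medians were 0.40, 0.37 and 0.27. For 19 of the 29 members at least 1 of the differences within a genotype was larger than that between genotypes (65.5%, against 76.8% of all tested rows). A difference between single libraries varies more than one between means of 2. Most genes would therefore meet this condition by construction, with no genotype effect. Ephb1, Efna2, Ntn4, Ntn1, Sema6b, Sema6a, Plxnc1, Dcc, Unc5c and Ephb6 were the exceptions.

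Many members differed in the same direction by library number in both genotypes, as did many other genes. Of the 29, 11 were lower (37.9%, against 26.4% of all tested rows) and 9 higher (31%, against 31.1%) in the library numbered 2 of each genotype, and 9 were mixed. The 11 lower ones included 6 semaphorins (Sema3d, Sema4a, Sema4d, Sema5a, Sema5b and Sema6b) together with Plxna3, Plxna4, Plxnb3, Epha4 and Ephb3. The 9 higher ones were Efna1, Efna2, Nrp1, Ntn4, Plxnb2, Plxnc1, Sema6a, Unc5a and Unc5c. The myelin marker sum was lower, and the microglial, endothelial and astrocyte sums were higher, in the same libraries. Their part in these differences was not tested.

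**Figure D4:**
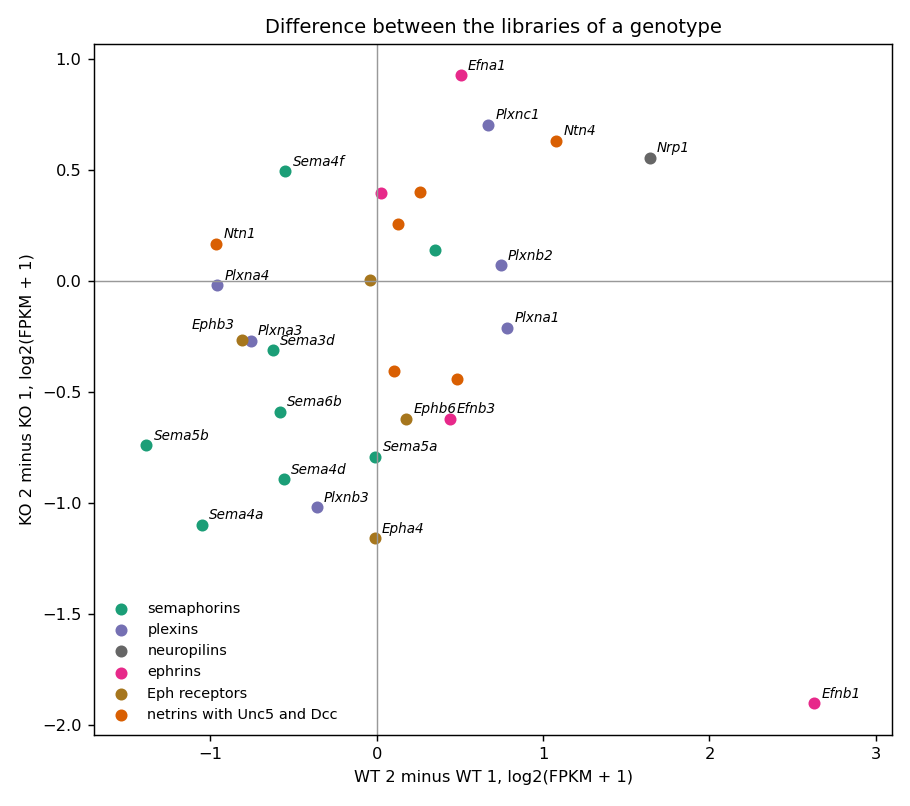
Difference between the library numbered 2 and that numbered 1, in WT on the x axis and in KO on the y axis, on the log2(FPKM + 1) scale, for the 29 tested guidance genes coloured by family. Genes beyond 0.5 on either axis are named. Of the 8 tested semaphorins 6 lie in the lower left, while Efnb1 lies farthest from the origin, at the lower right (2.63 in WT, -1.90 in KO).

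The 41 members outside the test held 36 that stayed under 1 FPKM in every library and 5 that reached it in a single library. Of all members, 14 were under 0.05 FPKM everywhere. Low values still stood for reads: from the steps of low values, 1 read on a transcript of 1 kb was worth about 0.0229 to 0.0266 FPKM in the 4 libraries. At that rate Sema3e, a class 3 semaphorin that binds plexin D1 without a neuropilin, rested on about 1 read in WT 1 and 0.9 in WT 2, and on about 271.3 in KO 1 and 238.2 in KO 2. Its FPKM were 0.004 and 0.003 in WT and 0.996 and 0.888 in KO, just under the limit for the test. Fitted with no filter, its log2 difference was 0.95 (SE 0.11; limma unadjusted p = 0.0023, adjusted p = 0.77). Sema3e and Unc5b (unadjusted p = 0.0013, adjusted p = 0.748 in the same fit) were singled out after their values were seen. Its receptor Plxnd1 was at 0.006 and 0.054 FPKM in the wild type and at 0.126 and 0.004 in KO.

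Other untested members were read in a single library. Sema3c was at 1.89 FPKM in WT 1, about 390.2 reads, and at most 0.005 elsewhere. Epha3 was at 1.54 FPKM in KO 2 against 0.019 in KO 1 and 0 in both WT libraries, and Efna4 was at 1.70 in KO 2 and at most 0.114 elsewhere. Among 42 members with about 100 reads or more in a library, 6 (14.3%) had under 2 in another, namely Efna4, Efnb1, Epha3, Robo1, Sema3c and Sema3e, against 10.8% of such rows over the table. These reads are estimates, because the transcript lengths behind the FPKM are not given.

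Genes that act beside or below these receptors showed no gene past the test either. Of 40 further guidance ligands and co-receptors 21 were tested, with both KO libraries above both WT libraries for 8 (38.1%, against 16.6% of all tested rows) and below for 2 (9.52%, against 18.3%; median log2 difference 0.39). Ror2, a Wnt5a receptor, was at 0.007 and 0.345 FPKM in the wild type and 3.48 and 5.07 in KO, and Rtn4r, the Nogo receptor, at 0.043 and 0.292 in WT and 1.18 and 3.55 in KO. The repulsive guidance molecule Rgma was at 0.522 and 0.474 FPKM in the wild type and 2.26 and 1.26 in KO, and the heparan sulphate proteoglycan Sdc3 at 24.7 and 18.9 in WT and 49.7 and 28 in KO. Cspg4, the NG2 proteoglycan of precursors, was at 25.2 and 27.9 FPKM in the wild type and 42.1 and 33 in KO. The precursor marker Pdgfra was also higher in both KO libraries (18.5 and 26.8 FPKM in the wild type, 40.2 and 42.5 in KO), and the myelin genes Mbp (103 and 74.1 in WT, 65 and 29.6 in KO) and Mog (17.0 and 7.77 in WT, 5.42 and 0.758 in KO) were lower. Of 17 tested precursor markers, both KO libraries lay above both WT libraries for 9 (52.9%) and below for 0, and 8 overlapped. Of 17 tested myelin markers, they lay below for 8 (47.1%) and above for 1 (5.88%), and 8 overlapped. Over all tested rows, 16.6% lay above and 18.3% below. The part of these differences in maturation markers in the guidance values was not tested.

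Intracellular effectors summed to between 2086 and 2859 FPKM a library, against 32.4 to 42.7 FPKM for the 34 receptors. Of 74 effector genes 48 were tested, with both KO libraries above for 8 (16.7%) and below for 7 (14.6%), against 16.6% and 18.3% of all tested rows, and overlapping groups for 33 (median log2 difference 0.01). Gipc1, a PDZ adapter that binds the tail of neuropilin 1, was at 340.5 and 305.2 FPKM in the wild type and at 220.8 and 173.3 in KO (log2 difference -0.72, SE 0.17; limma unadjusted p = 0.0077, adjusted p = 0.859). Cfl1, the actin-severing cofilin, was at 1004 and 1033 FPKM in the wild type and 875 and 938.9 in KO. Dpysl5, a collapsin response mediator protein, was higher in both KO libraries (0.865 and 0.95 FPKM in the wild type, 2.39 and 2.90 in KO), as was Ngef, an exchange factor bound by EphA receptors (1.31 and 0.638 in WT, 9.94 and 1.76 in KO).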

How the data were processed

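RNA was measured in 4 libraries of sorted mouse oligodendrocytes, 2 WT and 2 Zfp488 KO. Per the file headers, the authors deposited FPKM for each library in a column of its own. TopHat, with no version, and the mm10 build are named per the submitters' processing notes. The quantifier, annotation, strandedness and filters are not stated in the labels or the file. FPKM are not counts, so no count model was used. The approximate FPKM of 1 read came from the most frequent product of low values (0.02 to 0.2 FPKM) and the longest GENCODE M21 transcript, and intervals for counting error were not computed. A listed 0 can be a failed estimate.

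Rows with at least 1 FPKM in at least 2 libraries were analysed as log2(FPKM + 1), a scale that understates the change of low genes, with limma 3.58.1 in R 4.3.3 (genotype term, empirical Bayes with a mean-variance trend, two-sided, Benjamini-Hochberg over 10754 rows, threshold 0.05). The procedure was tested on simulated data. The members, the gene lists and the tests were chosen with earlier results of these data known. Differences with SE are given for tested members whose genotypes did not overlap and that differed by at least 0.3 on the log2 scale, and for the member of each family with the largest absolute difference. Ephb1, Sema3e and Unc5b, and the spreads quoted for Sema5b, are additions to that rule. The 3 most abundant members of each family and the 5 genes of each pathway list with the smallest p are named with their levels, except for an item not reported here. RefSeq GRCm38.p6 held all 70 symbols, and its promoter table held 59. The 14 alternatives tried are given in the closing section.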

Additional observations from a re-analysis of the deposited data

How the results depend on the processing

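Over the 14 alternatives, 0 rows and 0 members passed in any of them (limma, smallest adjusted p 0.413, with the replicate number as a block). The fit with the replicate block gave 0 members called, with 1 member higher (Ntn4) and 1 lower (Efna2) at an unadjusted p under 0.05, and 1025 such rows over the table against 608 without it. The labels do not say that a number marks an animal, litter or day. The differences of number 1 minus number 2 in WT and in KO correlated at 0.29 across tested rows, and with 2 pairs this does not establish pairing. Members with both KO libraries above both WT libraries numbered 8 in the analysis reported, 14 with no filter, 2 among those with a mean of at least 5 FPKM, and 11 (without KO replicate 1) to 14 (without KO replicate 2) with a library left out, 13 without WT replicate 1. Those below numbered 3, then 7 with no filter, and 5 (without KO replicate 2) to 10 (without KO replicate 1) with a library left out, 7 without WT replicate 1 and 8 without WT replicate 2. With fewer libraries, or with more rows tested, more members can meet that condition. With TPM, quantile, median or length and level scaling the counts were 7 to 9 above and 2 to 4 below. Shares over all rows were computed only for the analysis reported and the fit with no filter, so the other counts have no background beside them. Of the 12 members with a difference given by the naming rule, 10 kept their direction under every alternative that could be fitted. These 10 were named because their genotypes did not overlap. Leaving out a library or changing the pseudocount could therefore not reverse them, and their kept direction is no sign of robustness. Efnb1 ranged from -0.51 to 2.13 (2.12 at most with a library left out) and Nrp1 from -1.04 to 0.60. Efnb1 was reversed at -0.51 and -0.15, and Nrp1 at 0.60 and 0.05, when a library was left out. Precision is limited by 2 libraries a genotype.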
